A study of Mus musculus with 12 samples.

Results

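Small RNAs of Dicer-null mouse embryonic stem cells were compared with those of wildtype mouse embryonic stem cells. Each line gave 1 library, so the comparison rests on 2 of the 12 libraries of the series. Beside it stand 2 libraries of TT-FHAgo2, a clonal line with doxycycline-controlled Ago2 cloned by the same method, 1 labelled as given 2.5 µg/mL doxycycline and 1 as given none, used only as side values. The Dicer-null and wildtype lines were grown in serum with leukemia inhibitory factor on gelatin, and both are labelled as not given doxycycline, which drives Ago2 in other lines of the series. The labels do not say which part of Dicer1 was removed, whether the Dicer-null line is 1 clone, or from which wildtype line it came. RNA in the size range 18-75 nt was gel-purified and cloned by a method that needs a 5' phosphate, the end that Drosha and Dicer leave on their products. The deposited files list each distinct read and its count, with 78762632 reads in the Dicer-null library and 32255916 in the wildtype library. Reads ran to 40 nt, and reads of 38 or 39 nt were not present, so a read of 40 nt was taken as one whose 3' end was not reached. With 1 library per line there is no replicate, no test and no p-value. Intervals in brackets are 95% exact intervals that cover counting error only, and a feature was called lower or higher when its share of reads differed by at least 2-fold.

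Dicer is the ribonuclease that cuts the loop off a hairpin precursor in the cytoplasm and so releases a duplex of about the length of a mature miRNA. The precursor itself is cut from a longer transcript in the nucleus by Drosha and its partner Dgcr8, which sets the 5' end of the 5p arm and the 3' end of the 3p arm. Dicer sets the other ends, the 3' end of the 5p arm and the 5' end of the 3p arm. One strand of the duplex is then held by an Argonaute protein, and bases 2 to 8 of that strand, the seed, pair with messenger RNAs, mostly in their 3' untranslated regions. In mouse embryonic stem cells the miR-290 cluster is a major source of miRNAs, and several of its 3p arms share a seed with the miR-302 family.

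Of the mature miRNAs with the most wildtype reads, 12 are shown grouped by seed, since the seed decides which messages a miRNA can pair with. Sequences are the RefSeq mature forms on GRCm38, with the seed in capitals. The 5p arms of miR-292a and miR-293 share one seed.
mmu-miR-292a-5p: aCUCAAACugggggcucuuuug
mmu-miR-293-5p: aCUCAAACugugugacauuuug
The 3p arms of miR-295 and miR-294 and of miR-302b share another.
mmu-miR-295-3p: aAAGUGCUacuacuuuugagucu
mmu-miR-294-3p: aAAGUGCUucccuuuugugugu
mmu-miR-302b-3p: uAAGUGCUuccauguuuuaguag
In miR-20a and miR-17 the same letters are shifted by 1 base.
mmu-miR-20a-5p: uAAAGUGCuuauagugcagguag
mmu-miR-17-5p: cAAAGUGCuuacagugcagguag
A further 5 have other seeds.
mmu-miR-293-3p: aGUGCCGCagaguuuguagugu
mmu-miR-182-5p: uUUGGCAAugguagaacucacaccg
mmu-miR-183-5p: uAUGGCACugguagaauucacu
mmu-miR-92a-3p: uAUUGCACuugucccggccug
mmu-miR-21a-5p: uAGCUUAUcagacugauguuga
By seed, reads starting at the arms with CUCAAAC had 127 CPM (counts per 1000000 reads of the file) in Dicer-null cells and 34670 CPM in wildtype cells, 274-fold lower. Those with AAGUGCU had 4.66 CPM in Dicer-null cells and 15495 CPM in wildtype cells, 3325-fold lower, and those with AAAGUGC had 10.7 CPM in Dicer-null cells and 19059 CPM in wildtype cells, 1774-fold lower. The loss was smallest for AUGGCAC of miR-183, at 18.1-fold, and largest for GUGCAAA of the miR-19 family, at 7385-fold, among the 15 seeds with the most wildtype reads. Sums and ranks of seeds, here and below, count only reads that begin at a RefSeq mature form, so they are incomplete. Mir302a had 23758 wildtype reads, of which 2652 began at its 5p arm and 0 at a 3p arm, so most entered no seed.

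Dicer1 gave few reads in either line, with 123 reads (1.56 CPM) in Dicer-null cells and 54 reads (1.67 CPM) in wildtype cells, a ratio of 0.933 (0.672 to 1.31). These are fragments of the whole annotated Dicer1 transcript, and since the removed part is not stated they do not check the label. The miRNA reads bear on the label only in part, since a low share of them is not particular to the Dicer-null line. Reads that matched an annotated miRNA hairpin exactly made up 1.42% of all reads in Dicer-null cells (1117325 reads) and 21.1% in wildtype cells (6803313 reads), a ratio of 0.0673 (0.0671 to 0.0674). In TT-FHAgo2 cells without doxycycline, which are not labelled Dicer-null, they made up 1.30%. Most of the hairpin reads left in Dicer-null cells came from genes that are annotated as miRNA but have no mature sequence in RefSeq. These genes held 1.17% of Dicer-null reads and 1.53% of wildtype reads, led by Snord43, a snoRNA listed among the miRNA genes, with 3475 CPM in Dicer-null cells and 3653 CPM in wildtype cells. In hairpins that do have a RefSeq mature sequence, Dicer-null cells had 2515 CPM and wildtype cells 195649 CPM, 77.8-fold lower in Dicer-null cells. The 130 features without one that had 100 or more reads held 65 (50%) lower and 15 (11.5%) higher.

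Of 1711 hairpin features with a read in either library, 421 had 100 or more reads over both, and 328 of these (77.9%) were lower and 22 (5.23%) higher in Dicer-null cells. The median log2 ratio was -6.998, with the 47 features that had no read in one library set to a floor of 3 counts. Among the 291 features with a RefSeq mature sequence, 263 (90.4%) were lower and 7 (2.41%) higher, and the median was -7.34. The 100-read rule was met by Mir218-2, with 2 reads in Dicer-null cells and 99 in wildtype cells, and narrowly missed by Mir3072, with 0 reads in Dicer-null cells and 99 in wildtype cells. Since many hairpins passed through their wildtype reads alone, the share called lower describes hairpins that wildtype cells made, not all annotated hairpins.

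**Figure D1:**
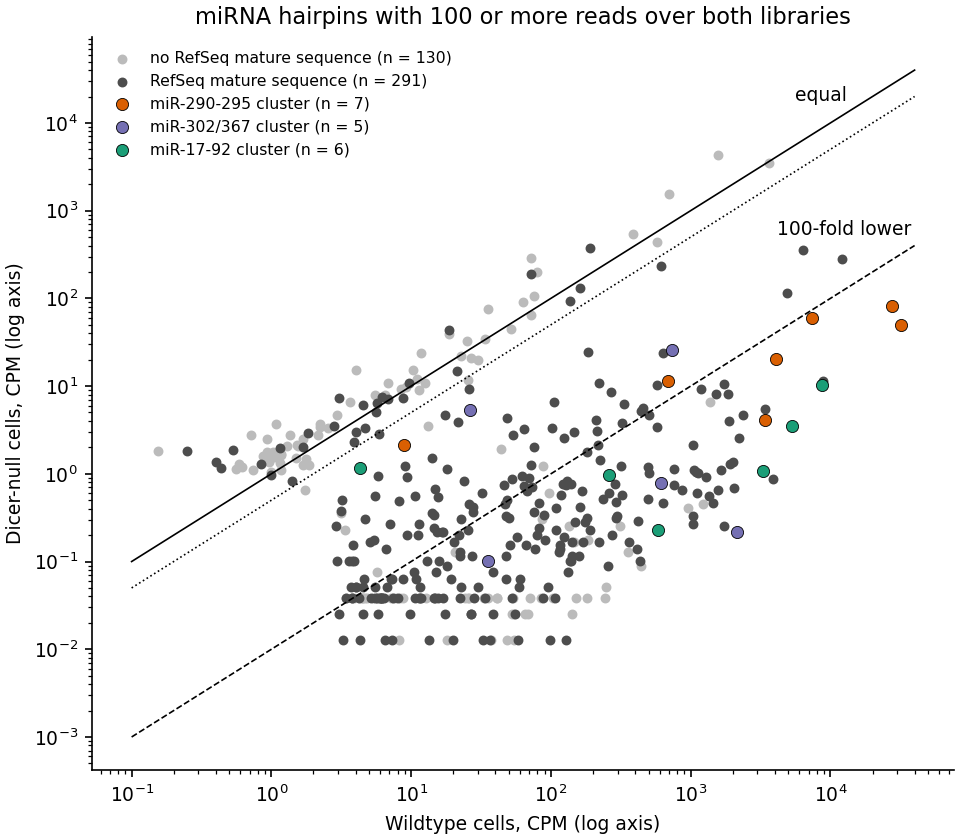
CPM of each miRNA hairpin feature with 100 or more reads over both libraries, in Dicer-null cells (vertical axis, log scale) and wildtype cells (horizontal axis, log scale). Points are features, with features at 0 reads drawn at the floor of 3 counts and single-gene members of 3 clusters in color. Lines mark equal CPM (solid), 2-fold lower (dotted) and 100-fold lower (dashed). Of the 291 features with a RefSeq mature sequence 263 lie below the dotted line, while 65 of the 130 without one lie on or above it.

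Among hairpins with a RefSeq mature sequence, those with the most wildtype reads all lost most of their reads. Mir292, on chromosome 7 within the miR-290 cluster, had 49.8 CPM in Dicer-null cells and 31732 CPM in wildtype cells, 637-fold lower (617 to 657). Mir293 of the same cluster had 82.7 CPM in Dicer-null cells and 27630 CPM in wildtype cells, 334-fold lower (326 to 342). Mir295 had 59.6 CPM in Dicer-null cells and 7336 CPM in wildtype cells. The decreases were unequal in size. Mir20a of the miR-17-92 cluster had 10.2 CPM in Dicer-null cells and 8698 CPM in wildtype cells, 856-fold lower (799 to 919). Mir7-1/Mir7-2, whose reads cannot be split between 2 genes, had 11.5 CPM in Dicer-null cells and 8859 CPM in wildtype cells, 772-fold lower (723 to 825). Mir20b, of the miR-106a-363 cluster, was 4490-fold lower (3541 to 5782), with 0.863 CPM in Dicer-null cells and 3876 CPM in wildtype cells. At the other end were Mir183, with 352 CPM in Dicer-null cells and 6344 CPM in wildtype cells, and Mir182, with 278 CPM in Dicer-null cells and 12171 CPM in wildtype cells. Mir183 was 18.0-fold lower (17.8 to 18.3) and Mir182 43.9-fold lower (43.3 to 44.5). Mir21a had 116 CPM in Dicer-null cells and 4899 CPM in wildtype cells, 42.2-fold lower (41.4 to 43.2). Mir182, Mir183 and Mir21a were therefore the hairpins with the most Dicer-null reads among the 12 largest of the wildtype library that have a RefSeq mature sequence.

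The lowest ratios belonged to hairpins that were nearly absent in Dicer-null cells. Mir302b had 17 reads (0.216 CPM) in Dicer-null cells and 69483 reads (2154 CPM) in wildtype cells, 9980-fold lower (6233 to 17133). Reads shared by Mir19b-1 and Mir19b-2 numbered 20 in Dicer-null cells and 56279 in wildtype cells, 6871-fold lower (4449 to 11250). Reads shared by Mir92-1 and Mir92-2 numbered 1 in Dicer-null cells and 4138 in wildtype cells, a ratio of 9.9e-05 (2.51e-06 to 0.000552). Reads shared by Mir218-1 and Mir218-2 numbered 1 in Dicer-null cells and 3166 in wildtype cells. The other 4 of the 8 lowest, Mir669c and 3 merged features of Mir466, Mir669a and Mir467a copies, belong to the Sfmbt2 intron cluster and had 2 to 7 reads in Dicer-null cells.

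By cluster and family, the loss was general. All 7 features of the miR-290 cluster that passed were lower, and the cluster summed to 231 CPM in Dicer-null cells and 74912 CPM in wildtype cells, 325-fold lower. All 6 features of the miR-17-92 cluster were lower, with 17.1 CPM in Dicer-null cells and 18185 CPM in wildtype cells, 1061-fold lower. Its paralogs miR-106b-25 and miR-106a-363 had 9 of 9 lower and were 809-fold lower in sum, with 14.5 CPM in Dicer-null cells and 11767 CPM in wildtype cells. The miR-302 cluster, which includes Mir367 and marks pluripotent cells, had 6 of 6 lower and was 112-fold lower in sum, with 31.9 CPM in Dicer-null cells and 3574 CPM in wildtype cells. Within it Mir302a alone held 25.5 CPM in Dicer-null cells, against 737 CPM in wildtype cells, and Mir367 held 5.28 CPM in Dicer-null cells and 26.6 CPM in wildtype cells. The let-7 family, which is low in stem cells and rises as they differentiate, had 7 of 7 passing features lower, with 3.82 CPM in Dicer-null cells and 158 CPM in wildtype cells, 41.3-fold lower in sum. Features of single let-7 copies with too few reads to pass were mixed. Mirlet7a-1 had 65 reads in Dicer-null cells and 6 in wildtype cells, a ratio of 4.44 (1.93 to 12.5). Mirlet7f-2 had 36 reads in Dicer-null cells and 17 in wildtype cells, and Mirlet7b 3 in Dicer-null cells and 27 in wildtype cells. The shares called lower in these clusters and families stand beside the 77.9% of all hairpin features that were lower.

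The imprinted Dlk1-Dio3 region on chromosome 12 carries one of the largest miRNA groups of the mouse genome. Of its 45 features that passed, 44 were lower and 1, Mir412, was within 2-fold, and the region summed to 90.2 CPM in Dicer-null cells and 15024 CPM in wildtype cells, 167-fold lower. Mir381 had 0.686 CPM in Dicer-null cells and 2050 CPM in wildtype cells, Mir127 8.04 CPM in Dicer-null cells and 1854 CPM in wildtype cells, and Mir541 10.5 CPM in Dicer-null cells and 1736 CPM in wildtype cells. The Sfmbt2 intron cluster on chromosome 2 consists of many near-identical copies whose reads are shared, so its features are merged. All 47 of them that passed were lower, and 27 had no read at all in Dicer-null cells. The cluster summed to 2.26 CPM in Dicer-null cells and 4414 CPM in wildtype cells. With so few Dicer-null reads, its features met the read rule mainly through wildtype reads. The rule thus largely set the count of 47 lower, which adds little to the summed CPM. The 44 of 45 and 47 of 47 lower stand beside 77.9% of all hairpin features and 90.4% of those with a RefSeq mature sequence.

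Hairpins that reach Dicer by other routes were also lower. Mirtrons are short introns that fold into a precursor after splicing and need no Drosha. Mir1981 had 4 reads in Dicer-null cells and 371 in wildtype cells, 226-fold lower (87.7 to 836), and Mir877 had 4 reads in Dicer-null cells and 217 in wildtype cells, 132-fold lower (51.0 to 491). The other 5 mirtrons of the list had 0 reads in Dicer-null cells and 3 to 21 reads in wildtype cells. Mir484 and Mir320 are hairpins at the starts of Pol II transcripts, and Mir320 is known to be processed without Drosha. Mir484 had 0.114 CPM in Dicer-null cells and 160 CPM in wildtype cells, 1399-fold lower (736 to 3062), and Mir320 had 0.254 CPM in Dicer-null cells and 136 CPM in wildtype cells, 535-fold lower (346 to 876). Mir451a, the one miRNA known to be cut by Ago2 in place of Dicer, had 26 reads (0.330 CPM) in Dicer-null cells and 17 reads (0.527 CPM) in wildtype cells. That is a ratio of 0.626 (0.327 to 1.23) with too few reads for the 100-read rule, so a difference was not detectable at this depth.

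The 5p and 3p arms did not decline alike. Reads were assigned to an arm when they began within 1 nt of the 5' end of the RefSeq mature form. Reads that began at a 5p arm, the end set before Dicer acts, had 1550 CPM in Dicer-null cells and 114485 CPM in wildtype cells, 73.9-fold lower. Reads that began at a 3p arm, the end set by Dicer, had 74.5 CPM in Dicer-null cells and 70915 CPM in wildtype cells, 952-fold lower. Reads of the same hairpins that began at neither end had 890 CPM in Dicer-null cells and 10249 CPM in wildtype cells, 11.5-fold lower. Of these, 34.4% in Dicer-null cells and 76.7% in wildtype cells were of 20 to 23 nt. Arm values leave them out, so an arm without a RefSeq mature form is missing. Mir292, with 1023555 wildtype reads, had 797228 that began at its 5p arm and 0 at a 3p arm. Over single arms with 100 or more reads, the median was 131-fold lower for 179 5p arms and 792-fold lower for 155 3p arms. The log2 ratios spread widely, with quartiles of -8.76 and -5.36 for 5p arms and of -11.05 and -8.0 for 3p arms. Arm for arm, 170 of the 179 5p arms and 149 of the 155 3p arms were lower. Without hairpins that share reads, the medians were 131-fold lower for 141 5p arms and 995-fold lower for 122 3p arms.

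Arm balance was read from hairpins that share no reads with another gene, since copies with shared mature reads lack part of an arm. This restriction was chosen after seeing the data. In 91 such hairpins with at least 20 arm reads in Dicer-null cells and 100 in wildtype cells, the median share of 5p reads was 98.7% in Dicer-null cells and 91.4% in wildtype cells. Of the 32 that were mostly 3p in wildtype cells, 22 were mostly 5p in Dicer-null cells, and 58 of the 59 that were mostly 5p in wildtype cells were so in Dicer-null cells. Mir295 had 3983 5p reads and 171 3p reads in Dicer-null cells, against 3658 5p reads and 232256 3p reads in wildtype cells. Its 5p arm had 50.6 CPM in Dicer-null cells and 113 CPM in wildtype cells, and its 3p arm had 2.17 CPM in Dicer-null cells and 7200 CPM in wildtype cells. Mir367 had 379 5p reads and 1 3p read in Dicer-null cells, against 81 5p reads and 725 3p reads in wildtype cells.

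The 5p reads left in Dicer-null cells were also longer. Their most frequent length was 24 nt in Dicer-null cells and 23 nt in wildtype cells, and their median was 26 nt in Dicer-null cells and 23 nt in wildtype cells. The lengths of mature miRNAs, 20 to 23 nt, held 9.52% of 5p-start reads in Dicer-null cells and 78.6% in wildtype cells. Reads of 27 nt or more held 41.1% in Dicer-null cells and 0.777% in wildtype cells. These are shares of 5p-start reads, which were 73.9-fold lower in Dicer-null cells, and not amounts. As a share of all reads, those of 28 nt had 130 CPM in Dicer-null cells and 422 CPM in wildtype cells. Those of 31 nt had 71.4 CPM in Dicer-null cells and 21.4 CPM in wildtype cells. At 27 to 29 nt mmu-mir-3535 alone had 59.6 CPM in Dicer-null cells and 422 CPM in wildtype cells. Reads of 40 nt, which run from the 5p end past the loop or into it without reaching a 3' end, held 10.9% in Dicer-null cells (13280 reads) and 0.129% in wildtype cells (4766 reads). As a share of all reads they were closer, with 169 CPM in Dicer-null cells and 148 CPM in wildtype cells. Most came from 3 hairpins, Mir1291 with 56.6 CPM in Dicer-null cells and 95.3 CPM in wildtype cells, Mir182 with 56.5 CPM in Dicer-null cells and 1.61 CPM in wildtype cells, and mmu-mir-3535 with 36.2 CPM in Dicer-null cells and 24.99 CPM in wildtype cells. The 3p-start reads differed less in length, with a most frequent length of 22 nt in both lines. In Dicer-null cells 65.2% of the 5870 3p-start reads were of 20 to 23 nt, against 98.7% of 2287437 in wildtype cells.

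**Figure D2:**
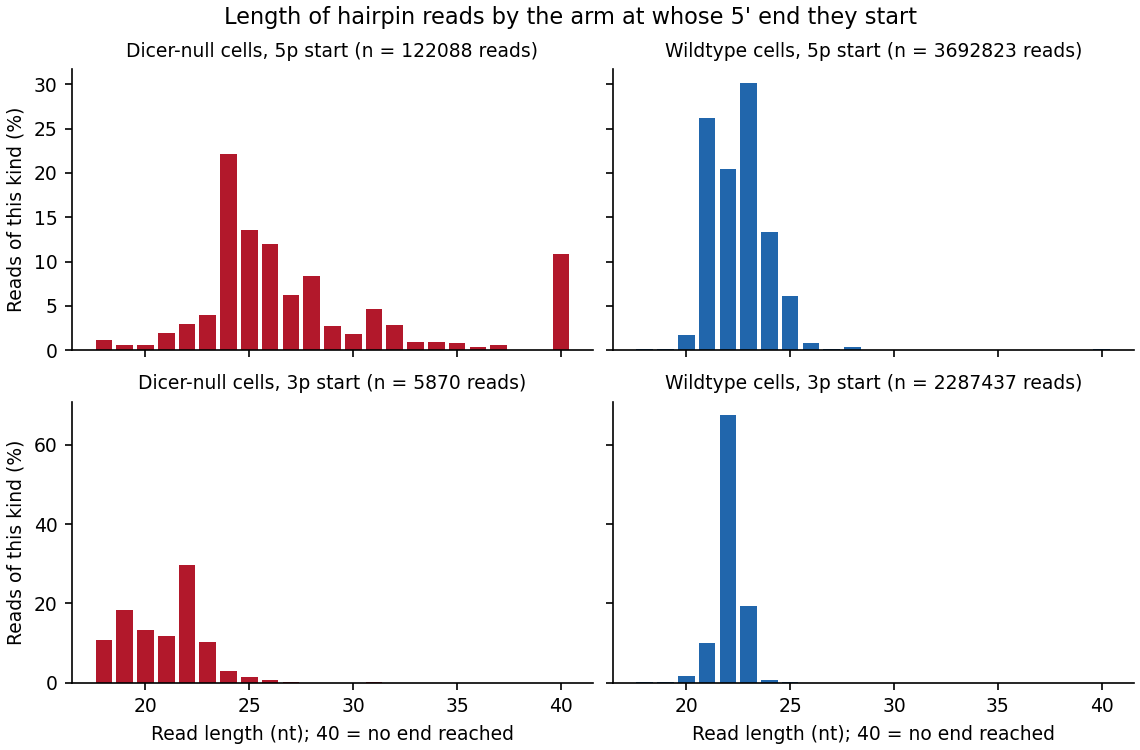
Length distribution of exact hairpin reads that begin at the 5' end of the 5p arm (top) or of the 3p arm (bottom), in Dicer-null cells (left) and wildtype cells (right). Bars give the percent of reads of that kind at each length in nt, and 40 nt holds reads whose 3' end was not reached. Of the 5p-start reads 88.8% are of 24 nt or more in Dicer-null cells, with 10.9% at 40 nt, against 21.1% of 24 nt or more in wildtype cells.

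The most frequent 5p-start read of each of 5 hairpins is printed for both lines. They were chosen after their lengths were seen, as cases where the change in the 3' end is visible in the letters. Capitals mark the bases past the end of the RefSeq mature form, all of which match the hairpin. An added base that equals the hairpin's next base cannot be told apart from it.
Mir183 in Dicer-null cells: tatggcactggtagaattcactGT
Mir183 in wildtype cells: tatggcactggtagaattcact
Mir21a in Dicer-null cells: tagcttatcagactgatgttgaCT
Mir21a in wildtype cells: tagcttatcagactgatgttgaC
Mir293 in Dicer-null cells: actcaaactgtgtgacattttgTT
Mir293 in wildtype cells: actcaaactgtgtgacatttt
Mir295 in Dicer-null cells: actcaaatgtggggcacacttcTGG
Mir295 in wildtype cells: actcaaatgtggggcacacttcT
Mir434 in Dicer-null cells: gctcgactcatggtttgaaccaTT
Mir434 in wildtype cells: gctcgactcatggtttgaacc
In each of the 5 the leading Dicer-null read was 1 to 3 nt longer than the leading wildtype read and began at the same base. Other hairpins kept more of the mature lengths, with 52.3% of 5p-start reads at 20 to 23 nt in Dicer-null cells for Mir292 and 48.5% for Mir20a, against 99.6% and 97.9% in wildtype cells. The hairpins lie on chromosome 6 for Mir183, 11 for Mir21a, 7 for Mir293 and Mir295, and 12 for Mir434.

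For 3 of these hairpins the longer read was more frequent in Dicer-null cells as a share of all reads, and for Mir183 and Mir21a it was less frequent. The 24-nt Mir21a read had 59.9 CPM in Dicer-null cells and 182 CPM in wildtype cells. The 24-nt Mir293 read above had 43.3 CPM in Dicer-null cells and 8.90 CPM in wildtype cells, while the 21-nt read had 2.996 CPM in Dicer-null cells and 8767 CPM in wildtype cells. The 25-nt Mir295 read had 987 reads in Dicer-null cells and 5 in wildtype cells. The 24-nt Mir434 read had 899 reads in Dicer-null cells and 10 in wildtype cells. For Mir183 the 24-nt read had 143 CPM in Dicer-null cells and 370 CPM in wildtype cells, while the 22-nt read had 6.48 CPM in Dicer-null cells and 2754 CPM in wildtype cells. Reads of 24 to 26 nt made up 81.5% of the 5p-start reads of Mir183 in Dicer-null cells and 5.99% in wildtype cells. For Mir205 the same lengths had 5.90 CPM in Dicer-null cells and 0.341 CPM in wildtype cells, and for Mir411 6.31 CPM in Dicer-null cells and 0.372 CPM in wildtype cells. Mir182 differed from these. Its RefSeq 5p form is already 25 nt long, and its most frequent 5p-start read in Dicer-null cells was one of 40 nt, with 4443 reads in Dicer-null cells and 52 in wildtype cells.

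Counted over all hairpins, 5p-start reads at least 3 nt longer than the RefSeq form had 799.9 CPM in Dicer-null cells and 496 CPM in wildtype cells. Of 41 hairpins with 100 or more such reads, 21 (51.2%) were higher, 10 (24.4%) were lower and 10 within 2-fold in Dicer-null cells, a measure chosen after the read lengths had been seen. For Mir21a these longer reads had 44.0 CPM in Dicer-null cells and 0.341 CPM in wildtype cells, and for Mir183 189 CPM in Dicer-null cells and 10.9 CPM in wildtype cells. For Mir182 they had 113 CPM in Dicer-null cells and 6.63 CPM in wildtype cells, and for Mir15b 163 reads in Dicer-null cells and 1 in wildtype cells. In the same group of 41, Mir1291 and Mir677 had many such reads in both lines, with 75.9 CPM in Dicer-null cells and 122 CPM in wildtype cells for Mir1291, and 109 CPM in Dicer-null cells and 128 CPM in wildtype cells for Mir677. Most of the 5p reads of these hairpins were long in wildtype cells too, at 94.8% for Mir1291 and 88.0% for Mir677. Mir290a and Mir30e went the other way, with fewer longer reads in Dicer-null cells, 1.64 CPM against 5.92 CPM in wildtype cells for Mir290a and 2.45 CPM against 15.1 CPM in wildtype cells for Mir30e.

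**Figure D3:**
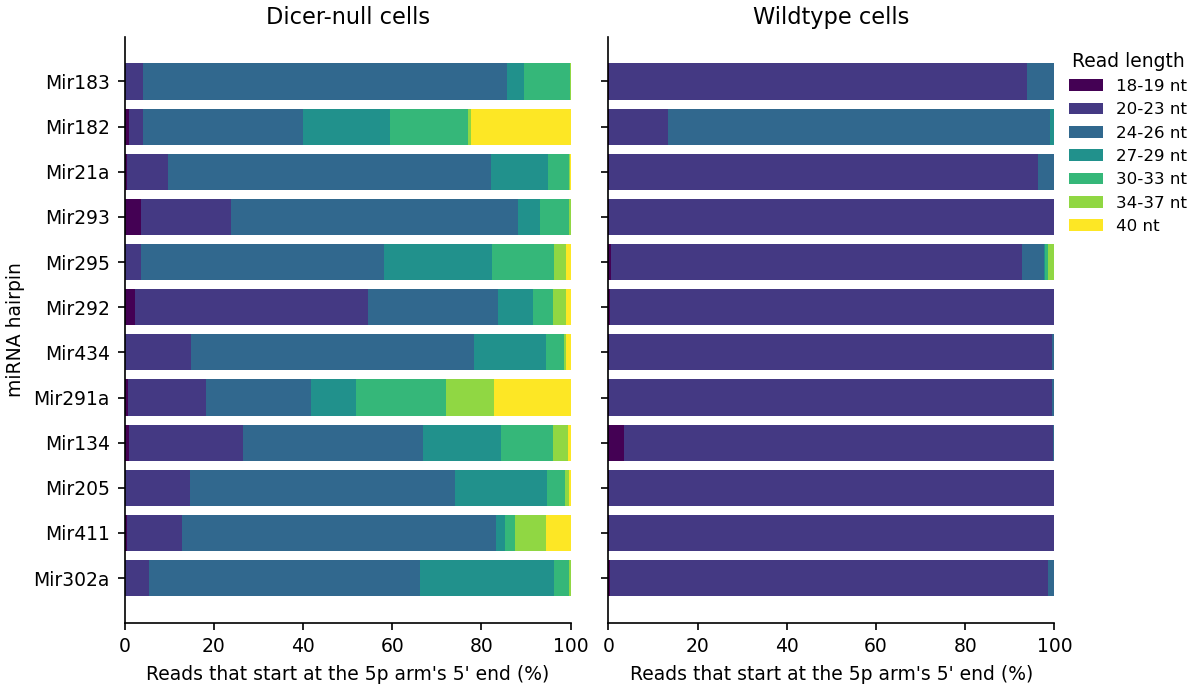
Read-length classes among reads that begin at the 5' end of the 5p arm for 12 hairpins, in Dicer-null cells (left) and wildtype cells (right). Bars are stacked percents of that hairpin's 5p-start reads. In Dicer-null cells 24 to 26 nt holds 81.5% for Mir183 and 59.4% for Mir205, against 5.99% and 0.0614% in wildtype cells, and Mir182 and Mir291a show the most reads of 40 nt.

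Some annotated hairpins kept their reads. Of the 291 features with a RefSeq mature sequence, 28 were not lower past 2-fold, 21 within 2-fold and 7 higher, and 9 of the 28 are merged features of repeated copies. In 15 of the 28, reads of 20 to 24 nt made up less than 30% of the Dicer-null reads. Mir1291 had 94.3 CPM in Dicer-null cells and 137 CPM in wildtype cells, with 1.401% of reads at 20 to 24 nt in Dicer-null cells and 0.908% in wildtype cells. Mir677 had 133 CPM in Dicer-null cells and 162 CPM in wildtype cells. Mir6240 had 377 CPM in Dicer-null cells and 192 CPM in wildtype cells, and Mir6236 188 CPM in Dicer-null cells and 71.9 CPM in wildtype cells. Another 2 of the 28, Mir16-2 and Mir181a-2, hold only reads that set them apart from their paralogs, since most mature 5p reads fall into merged features. The Mir16-1/Mir16-2 feature was lower, with 1.02 CPM in Dicer-null cells and 504.6 CPM in wildtype cells, and Mir181a-1/Mir181a-2 had 3.94 CPM in Dicer-null cells and 21.6 CPM in wildtype cells. Without merged features and these 2, 17 hairpins were not lower.

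The highest ratios among all hairpin features rested on under 50 wildtype reads, apart from Mir6539 and a merged feature of Gm47287. Mir6539, which has no RefSeq mature sequence, had 291.6 CPM in Dicer-null cells and 72.3 CPM in wildtype cells, a ratio of 4.03 (3.86 to 4.21), and 97.6% of its Dicer-null reads were of 20 to 24 nt. Mir6992 had 143 reads in Dicer-null cells and 8 in wildtype cells, a ratio of 7.32 (3.62 to 17.3). Mir5136 had 148 reads in Dicer-null cells and 17 in wildtype cells. Mir122, a liver miRNA, had 293 reads in Dicer-null cells and 35 in wildtype cells, a ratio of 3.43 (2.41 to 5.02), and 98.6% of its Dicer-null reads were of 20 to 24 nt. In TT-FHAgo2 cells this hairpin had 0.527 CPM without doxycycline and 1.15 CPM with it. The others of the 8 highest were merged features of predicted genes or of Mir703 copies, with 5 to 130 reads in wildtype cells.

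Few features outside the hairpins lost reads of miRNA length, counting only reads with an exact match to a transcript. Reads without an exact match are not covered. Of those, 17.2% in Dicer-null cells and 24.6% in wildtype cells were of 20 to 24 nt. Of 1361 features with 100 or more reads of 20 to 24 nt, 34 (2.5%) were lower and 398 (29.2%) higher in Dicer-null cells. The lowest ratios of these short reads included 5 merged features led by the gene symbols Akap8, Apol6 and Arcn1, each a set of reads found in 9 to 12 genes. All 5 had 0 reads in Dicer-null cells and 133 to 1655 in wildtype cells. The largest had 51.3 CPM in wildtype cells, at least 1347-fold lower in Dicer-null cells by a floor of 3 counts in that library. In TT-FHAgo2 cells it had 0.0754 CPM without doxycycline and 14.9 CPM with it. Zfp385c had 1 such read in Dicer-null cells and 906 in wildtype cells, and Zcwpw1 4 in Dicer-null cells and 468 in wildtype cells. The leading 20- to 24-nt reads of 3 genes with a single source are printed because each was absent from the Dicer-null library, with bases 2 to 8 in capitals.
Zcwpw1 in wildtype cells: cGCCACTActgcccggctct
Cpsf4l in wildtype cells: tCTGTCCCacacaccctctgac
Dnm3os in wildtype cells: aCAGTAGTctgcacattggttt
Zcwpw1, on chromosome 5, encodes a reader of histone methylation used in meiosis, and its printed read had 0 copies in Dicer-null cells and 432 in wildtype cells, but also 0 CPM in both TT-FHAgo2 libraries. The first 21 of the 22 bases of the Dnm3os read are those of mmu-miR-199a-3p, whose hairpin lies inside Dnm3os on chromosome 1, and its reads of 20 to 24 nt numbered 0 in Dicer-null cells and 106 in wildtype cells.

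Cpsf4l, a relative of a polyadenylation factor on chromosome 11, had small RNAs at its transcript start. Within the first 200 nt of its transcripts it had 25 reads (0.317 CPM) in Dicer-null cells and 233 reads (7.22 CPM) in wildtype cells, 22.8-fold lower (15.0 to 35.9). At 20 to 24 nt the same window held 0.102 CPM in Dicer-null cells and 7.10 CPM in wildtype cells. In the TT-FHAgo2 libraries those lengths had 0 CPM without doxycycline and 7.83 CPM with it. Of the other start RNAs on the list, Khk had 3 reads in Dicer-null cells and 1 in wildtype cells, Asf1b 5 in Dicer-null cells and 7 in wildtype cells, and Chac1 2 in each. No difference was detectable at this depth for these 3.

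Start windows as a whole held a larger share in Dicer-null cells. Reads in the first 200 nt of protein-coding transcripts held 0.304% of Dicer-null reads and 0.216% of wildtype reads, with 23.2% of them at 20 to 24 nt in Dicer-null cells and 23.4% in wildtype cells. Of 383 windows with 100 or more reads, 2 (0.522%), Cpsf4l and Pfkp, were lower and 95 (24.8%) higher, and the median log2 ratio was 0.65. Alpl, the tissue-nonspecific alkaline phosphatase of stem cells, had the highest ratio, with 26.7 CPM in Dicer-null cells and 2.17 CPM in wildtype cells, 12.3 (9.71 to 15.9), and 74.9% of its window reads were 1 sequence. Arrdc3, an arrestin-domain protein, Gpx1, a glutathione peroxidase, and Mt2, a metallothionein, were among the next highest, with 100, 129 and 246 reads in Dicer-null cells against 5, 7 and 19 reads in wildtype cells. Windows of ribosomal protein genes had 1 of 36 higher and none lower, with a median of 0.24, and those of replication-dependent histone genes 3 of 15 higher and none lower, with a median of 0.71.

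Of the other RNA classes, several held a similar share of reads in both lines, ribosomal and messenger RNA a larger one in Dicer-null cells, and Y RNA a smaller one. All snoRNA and scaRNA reads, from RNAs that guide modification of other RNAs, held 15.6% in Dicer-null cells and 14.04% in wildtype cells, a ratio of 1.11 (1.111 to 1.113). Spliceosomal snRNA held 1.85% in Dicer-null cells and 1.81% in wildtype cells, and mitochondrial tRNA 0.215% in Dicer-null cells and 0.216% in wildtype cells. Ribosomal RNA held 6.62% in Dicer-null cells and 3.27% in wildtype cells, a ratio of 2.02 (2.02 to 2.03), and messenger RNA 7.37% in Dicer-null cells and 4.55% in wildtype cells, a ratio of 1.62 (1.616 to 1.622). The messenger RNA total, 73717 CPM in Dicer-null cells and 45534 CPM in wildtype cells, rested largely on few genes. Tmem38b had 30025 CPM in Dicer-null cells and 17577 CPM in wildtype cells. Lars2 had 13234 CPM in Dicer-null cells and 4950 CPM in wildtype cells. Rpl13 was lower in Dicer-null cells, with 3369 CPM against 4506 CPM in wildtype cells. The class ratio is thus not that of a typical mRNA. Y RNA held 0.352% in Dicer-null cells and 0.749% in wildtype cells, a ratio of 0.470 (0.467 to 0.472). The ribosomal share covers annotated copies only. Reads without an exact match to any transcript held 53.6% in Dicer-null cells and 46.1% in wildtype cells, and precursor rRNA and nuclear tRNA sequences were not used here.

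Over 5318 features outside hairpins, 75 (1.41%) were lower and 1565 (29.4%) higher in Dicer-null cells, with a median log2 ratio of 0.69. A share of reads is relative, and with the reads outside hairpins as the denominator the same features gave 146 lower and 792 higher, with a median of 0.37. With all matched reads as the denominator they gave 36 lower and 3046 higher, with a median of 1.11. Values below use all reads of the file, so they are to be read against the median of 0.69.

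**Figure D4:**
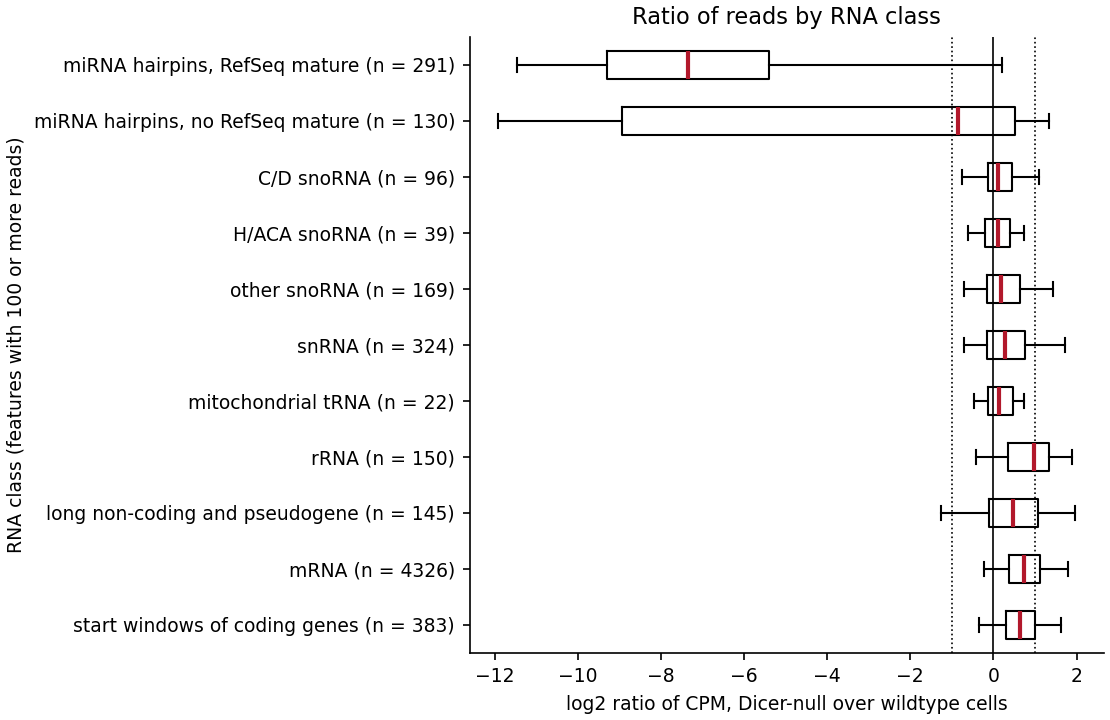
log2 ratio of CPM, Dicer-null over wildtype cells, of features with 100 or more reads in the RNA classes named on the axis, where small classes such as 7SK and Y RNA are not drawn. Boxes span the quartiles, the thick line is the median, whiskers reach the 5th and 95th percentiles, and dotted lines mark 2-fold. Hairpins with a RefSeq mature sequence sit at a median of -7.34, and the medians of the classes drawn outside hairpins lie between 0 and 1.

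Among single non-coding RNAs a few stood past 2-fold. Of 96 C/D snoRNA features 2 (2.08%) were lower and 6 (6.25%) higher, and 3 of the 6, AF357341, AF357425 and AF357428, lie in the Dlk1-Dio3 region between 109636012 and 109681593 on chromosome 12 of GRCm38. AF357428 had 329 CPM in Dicer-null cells and 105 CPM in wildtype cells, a ratio of 3.14 (3.03 to 3.25), while the hairpins of that region were lower. The 2 lower features were copies of Snord116l, from another imprinted region, with 4.19 CPM and 0.724 CPM in Dicer-null cells against 8.74 CPM and 2.14 CPM in wildtype cells. Rn7sk, the RNA that restrains the elongation factor P-TEFb, had 309.9 CPM in Dicer-null cells and 96.8 CPM in wildtype cells, a ratio of 3.20 (3.08 to 3.32). Rny1, which holds most of the Y RNA reads and binds the Ro protein, was lower, with 3346 CPM in Dicer-null cells and 7417 CPM in wildtype cells, a ratio of 0.451 (0.449 to 0.454). The other Y RNA, Rny3, had 174 CPM in Dicer-null cells and 77.3 CPM in wildtype cells. In the TT-FHAgo2 libraries Rny1 had 1258 CPM and 1093 CPM, below both lines.

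Fragments of messenger RNAs gave a view of transcripts, although in bulk RNA fewer cells that make a transcript and less of it per cell cannot be told apart. To leave out genes whose reads are mostly 1 sequence, 3792 single-gene mRNAs were taken in which the most frequent read held less than 10% of the reads. Of these, 9 (0.237%) were lower and 1250 (33%) higher. The lower ones included Lin28a, an RNA-binding protein that blocks let-7 processing, with 0.749 CPM in Dicer-null cells and 2.70 CPM in wildtype cells, a ratio of 0.278 (0.196 to 0.391). Dnmt3l, a cofactor of DNA methylation, had 0.508 CPM in Dicer-null cells and 2.26 CPM in wildtype cells, a ratio of 0.224 (0.149 to 0.334). Sfmbt2, the host gene of the miRNA cluster described above, had 52 reads in Dicer-null cells and 49 in wildtype cells, a ratio of 0.435 (0.288 to 0.656). Bnip3, a mitophagy receptor, and Hist1h1e, a linker histone, were also lower, at ratios of 0.355 (0.262 to 0.480) and 0.386 (0.306 to 0.486).

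The highest ratio among these mRNAs was that of Ccnd2. Ccnd2, a D-type cyclin, had 200 reads (2.54 CPM) in Dicer-null cells and 1 read (0.0310 CPM) in wildtype cells, a ratio of 81.9 (14.5 to 3251). Plagl1, an imprinted zinc finger protein, had 4.18 CPM in Dicer-null cells and 0.155 CPM in wildtype cells, a ratio of 26.9 (11.4 to 83.5). Ccdc141, Tnfrsf21 and Trap1a followed at ratios of 17.1, 13.8 and 12.5, with 3 to 6 reads each in wildtype cells. Prtg, a cell-surface protein of early neural tissue, had 267 reads in Dicer-null cells and 9 in wildtype cells, a ratio of 12.1 (6.30 to 26.9). Arrdc3 had 510 reads in Dicer-null cells and 20 in wildtype cells, a ratio of 10.4 (6.69 to 17.2). Id2, an inhibitor of basic helix-loop-helix factors, had 3.77 CPM in Dicer-null cells and 0.496 CPM in wildtype cells, against 0.301 CPM and 0.216 CPM in the TT-FHAgo2 libraries without and with doxycycline. For Plagl1 the TT-FHAgo2 libraries had 6.33 CPM without doxycycline and 1.37 CPM with it.

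The letters opposite a miRNA seed can be counted in the 3' untranslated region of each mRNA, and the ratios were described by that count for the 6 seeds with the most wildtype reads, a description added after the values were seen. A site was an exact match of 7 letters on the sense strand of the longest annotated region of 100 nt or more. Over all 3699 mRNAs with spread reads and such a region the median log2 ratio was 0.79. For the seed AAGUGCU of miR-294 and miR-302b, whose site is AGCACTT, the median was 1.06 in 175 mRNAs with 2 or more sites, 0.89 in 632 with 1 site and 0.75 in 2892 with none. The share of mRNAs higher past 2-fold was 53.1%, 43.5% and 29.98% in the same order. For the seed AAAGUGC of the miR-17 family, whose site GCACTTT overlaps the first, the medians were 1.03, 0.94 and 0.74. For the seed AUUGCAC of miR-92a and miR-25, with the site GTGCAAT, they were 1.27 in 45 mRNAs, 0.88 in 324 and 0.77 in 3330. These sites occurred in 15.5%, 12.3% and 6.89% of 19968 annotated regions.

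mRNAs with sites have longer untranslated regions, with a median of 4467 nt at 2 or more AGCACTT sites and 1323 nt at none, so the mRNAs were also split by that length into 3 groups of equal size. In the middle group the medians for AGCACTT were 1.26 in 23 mRNAs with 2 or more sites, 1.03 in 203 with 1 and 0.75 in 1008 with none. In the longest group they were 1.05 in 149, 0.85 in 358 and 0.83 in 726. In the shortest group they were 0.79 in 71 mRNAs with 1 site and 0.68 in 1158 with none. The other seeds were read in the middle and longest groups. For AAAGUGC, site GCACTTT, the middle group had a median of 1.32 in 25 mRNAs with 2 or more sites, 1.03 with 1 site and 0.76 with none. The longest group had 1.01 in 110 mRNAs with 2 or more sites, 0.94 with 1 site and 0.83 with none. For AUUGCAC, site GTGCAAT, the middle group had 1.02 in 82 mRNAs with 1 site and 0.80 with none. Its longest group had 1.34 in 40 mRNAs with 2 or more sites, 0.87 with 1 site and 0.85 with none. For CUCAAAC of miR-292a-5p and miR-293-5p, site GTTTGAG, the middle group had a median of 0.76 with 1 site and 0.81 with none. The longest group had 0.95 in 98 mRNAs with 2 or more sites, 0.88 with 1 site and 0.85 with none. For UUGGCAA of miR-182, site TTGCCAA, the middle group had 0.80 with 1 site and 0.80 with none. The longest group had 0.87 in 91 mRNAs with 2 or more sites, 0.88 with 1 site and 0.85 with none. For GUGCCGC of miR-293-3p, site GCGGCAC, the middle group had 0.85 in 25 mRNAs with 1 site and 0.80 with none. Its longest group had 0.83 in 43 mRNAs with 1 site and 0.86 with none. The difference between seeds was not tested, and the same mRNAs enter the counts of several seeds.

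**Figure D5:**
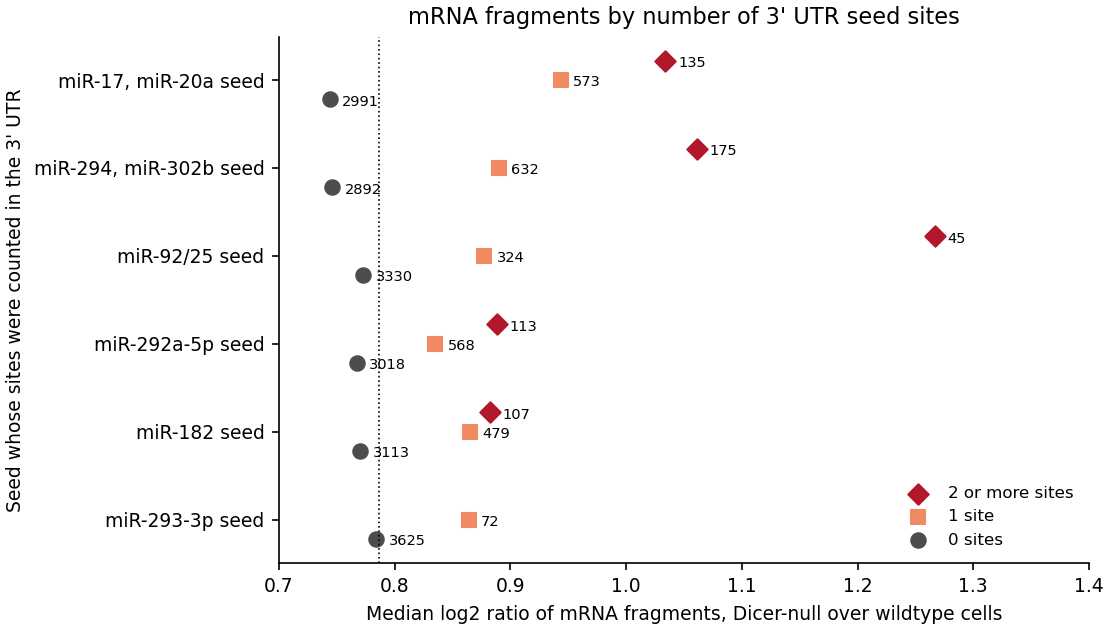
Median log2 ratio of mRNA fragments, Dicer-null over wildtype cells, by the number of seed sites in the 3' untranslated region, for the 6 seeds with the most wildtype reads. Numbers beside the points are mRNAs, and the dotted line is the median of all 3699. For the miR-17 and miR-294 seeds the medians step up from 0.74 and 0.75 at 0 sites to 1.03 and 1.06 at 2 or more. For the miR-292a-5p and miR-182 seeds they go from 0.77 at 0 sites to 0.89 and 0.88 at 2 or more.

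Genes of the small RNA pathway other than Dicer1 were near or above the median of mRNAs, of which 31.3% were higher and 0.994% lower past 2-fold. Of the 7 pathway genes with 100 or more reads none was lower and 2 were higher, with a median log2 ratio of 0.91. Ago1, an Argonaute, had 407 reads (5.17 CPM) in Dicer-null cells and 34 reads (1.05 CPM) in wildtype cells, a ratio of 4.90 (3.45 to 7.18), and 0 reads in both TT-FHAgo2 libraries. Ago2, the Argonaute with slicer activity, had 7.63 CPM in Dicer-null cells and 4.40 CPM in wildtype cells, a ratio of 1.73 (1.44 to 2.10). Drosha had 4.04 CPM in Dicer-null cells and 1.95 CPM in wildtype cells, a ratio of 2.07 (1.57 to 2.75), and its partner Dgcr8 2.79 CPM in Dicer-null cells and 1.49 CPM in wildtype cells, a ratio of 1.88 (1.37 to 2.62). Xpo5, which exports precursors from the nucleus, had a ratio of 1.54 (1.17 to 2.05).

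Both lines carried fragments of stem cell transcripts. All 12 pluripotency genes of the marker list had 100 or more reads over both lines and summed to 86.3 CPM in Dicer-null cells and 48.4 CPM in wildtype cells. Among them 5 were higher and 1, Lin28a, lower, with a median of 0.95. Of all 4326 mRNA features 31.3% were higher and 0.994% lower, with a median of 0.74. Pou5f1 had 8.34 CPM in Dicer-null cells and 3.72 CPM in wildtype cells, Sox2 14.2 CPM in Dicer-null cells and 7.35 CPM in wildtype cells, and Nanog 12.1 CPM in Dicer-null cells and 5.30 CPM in wildtype cells. Of 9 fibroblast marker mRNAs 7 were detected, summing to 20.97 CPM in Dicer-null cells and 11.1 CPM in wildtype cells. Sparc, with 6.46 CPM in Dicer-null cells and 1.30 CPM in wildtype cells, and Vim, with 4.35 CPM in Dicer-null cells and 0.899 CPM in wildtype cells, were higher. Fn1, the most abundant, was within 2-fold, with 10.03 CPM in Dicer-null cells and 8.77 CPM in wildtype cells. Thy1 had 3 reads in Dicer-null cells and 2 in wildtype cells, Tagln 5 and Acta2 2 in Dicer-null cells and 0 in wildtype cells, while Col1a1 had 0 reads in Dicer-null cells and 1 in wildtype cells and Col1a2 and Col3a1 had none. The 5 primitive endoderm markers summed to 0.914 CPM in Dicer-null cells and 1.27 CPM in wildtype cells, the 3 neural marker mRNAs to 1.08 CPM in Dicer-null cells and 0.434 CPM in wildtype cells, and the 4 trophoblast markers to 0.482 CPM in Dicer-null cells and 0.279 CPM in wildtype cells. The miRNAs on the fibroblast and neural lists went the other way. Fibroblast miRNAs summed to 0.317 CPM in Dicer-null cells and 223 CPM in wildtype cells. Neural miRNAs summed to 4.10 CPM in Dicer-null cells and 302 CPM in wildtype cells. All their features that passed, 3 and 2, were lower, beside 77.9% of all hairpin features. The part of other cells in the differences between lines was not tested. Ribosomal protein mRNAs, with 78 of 78 within 2-fold and a median of 0.30, and snoRNA host genes, with 17 of 17 within 2-fold and a median of 0.35, were among the steadiest groups.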

How the data were processed

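Small RNA libraries were analysed from 1 Dicer-null and 1 wildtype line of mouse embryonic stem cells, with 2 TT-FHAgo2 libraries of the same cloning method for reference and 8 libraries of the series not used. The deposited files hold raw read counts per distinct sequence, and the aligner, adapter trimming and build are not given in the sources used here. Reads of 18 nt or more without ambiguous bases, 69900337 in Dicer-null and 30047730 in wildtype cells, were matched exactly on the sense strand to 141767 GENCODE M21 transcripts. Matches held 35.2% of Dicer-null and 47.0% of wildtype reads. A sequence in several genes went to 1 merged feature of the first matching RNA class, miRNA hairpins first. CPM is counts over the file total. Features with 100 or more reads over both libraries were compared. Ratio intervals are conditional exact binomial, and PCR copies are not independent molecules. A 0 was set to 3 counts, 0.0381 CPM in Dicer-null and 0.0930 CPM in wildtype cells. The steps were tested on simulated counts. Hairpins named are the most abundant in wildtype cells and those with the highest and lowest ratios, other classes likewise, plus fixed pathway genes. The members and lists were chosen with earlier results of these data known. RefSeq mature sequences on GRCm38.p6 were found for 1022 of 2202 miRNA genes. Coordinates are those of GRCm38. Python 3.11.15, numpy 2.4.6, pandas 2.3.3, scipy 1.17.1, numba 0.67.0 and matplotlib 3.10.9 were used.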

Additional observations from a re-analysis of the deposited data

How the results depend on the processing

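No paired analysis was possible because each line has 1 library, and for the same reason no replicate could be left out. Of 105 alternative values, 36 stayed within the limits set, 68 moved and 1 reversed. Values below are Dicer-null over wildtype cells, and counts are features past 2-fold.

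The ratio of hairpin shares, 0.0673, was 0.0538 with reads outside hairpins as the denominator, 0.0899 with matched reads, 0.0706 with reads of 18 nt or more, 0.0635 from reads of 20 nt or more, 0.0103 from 20 to 24 nt, 0.0332 without reads of 40 nt, 0.0634 with 1 or 2 unmatched 3' bases allowed, 0.0345 with sequences of 1 gene, 0.0129 with hairpins that have a RefSeq mature sequence, an alternative chosen after seeing the data, and 0.555 with distinct sequences after thinning.

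With reads outside hairpins as the denominator 13 hairpins were higher, 146 features outside hairpins lower and 792 higher, and 5 start windows lower and 46 higher. With matched reads 38 hairpins were higher, 36 features outside lower and 3046 higher, and 213 start windows higher. A minimum of 30 reads gave 42 hairpins higher, 224 features outside lower and 3244 higher, and 30 start windows lower and 707 higher. A minimum of 1000 reads gave 192 hairpins lower and 10 higher, 10 features outside lower and 138 higher, and 0 start windows lower and 5 higher. Reads of 20 to 24 nt gave 11 hairpins higher, 34 features outside lower and 398 higher, and 8 start windows higher. Reads of 20 nt or more gave 1 start window lower. A fold of 4 gave 3 hairpins higher, 21 features outside lower and 167 higher, and 7 start windows higher. Sequences of 1 gene gave 11 hairpins higher and 43 features outside lower. Distinct sequences gave 6 hairpins higher, 572 features outside higher and 34 start windows higher.

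The rRNA ratio reversed with distinct sequences, to 0.964, and the cause was not tested. There snoRNA and scaRNA had 0.893, snRNA 0.798, mRNA 1.20 (1.199), and mitochondrial RNA 0.947. The 20 to 24 nt share of hairpin reads was 31.8% in Dicer-null and 53.0% in wildtype cells, and the 40-nt share 4.97% in Dicer-null and 2.92% in wildtype cells. From reads of 20 nt or more the ratios were 1.107 for snoRNA and scaRNA, 1.007 for snRNA, 1.623 for mRNA and 1.486 for mitochondrial RNA, and the shares 14.97% in Dicer-null and 92.4% in wildtype cells at 20 to 24 nt and 55.2% in Dicer-null and 2.32% in wildtype cells at 40 nt. From sequences of 1 gene they were 1.111 for snoRNA and scaRNA, 0.929 for snRNA, 2.50 for rRNA and 1.638 for mRNA, and the shares 19.4% in Dicer-null and 92.8% in wildtype cells at 20 to 24 nt and 43.7% in Dicer-null and 1.51% in wildtype cells at 40 nt.

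With 1 library per line, differences between libraries of 1 line were not measured, so the lines and their libraries cannot be told apart. Depth was unequal, and features with few wildtype reads have wide intervals.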

Other observations

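Reads that begin at a 5p arm had 1550 CPM in Dicer-null cells and 114485 CPM in wildtype cells. In TT-FHAgo2 cells they had 1699 CPM without doxycycline and 58670 CPM with it, so their shares by length are not amounts. Among reads that begin at a 5p arm, those of 27 nt or more held 41.1% in Dicer-null cells, 20.05% in TT-FHAgo2 cells without doxycycline and 0.665% in those with it, against 0.777% in wildtype cells. Reads of 40 nt held 10.9% in Dicer-null cells, 5.66% in TT-FHAgo2 cells without doxycycline and 0.183% in those with it, against 0.129% in wildtype cells. The median length was 26 nt in Dicer-null cells and 22 nt in both TT-FHAgo2 libraries, against 23 nt in wildtype cells. The share at 20 to 23 nt was 9.52% in Dicer-null cells, 61.3% in TT-FHAgo2 cells without doxycycline and 84.7% in those with it, against 78.6% in wildtype cells. Hairpin reads as a whole held 1.42% in Dicer-null cells, 1.30% in TT-FHAgo2 cells without doxycycline and 10.3% in those with it, against 21.1% in wildtype cells. The start window of mt-Nd3, a mitochondrial subunit of respiratory complex I, had 120 CPM in Dicer-null cells and 71.5 CPM in wildtype cells, but 0.188 CPM in TT-FHAgo2 cells without doxycycline and 0.0359 CPM in those with it.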
